A study of Homo sapiens with 20 samples.

Results

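The regions described here are the ATAC-seq peaks of the distal end of human chromosome 19q (hg38) that start between 52 and 58.6 Mb, in WT cells and in cells with a deletion of GPX2, a selenium-dependent glutathione peroxidase. The members were selected on position alone, but the window itself was chosen by measured values of the same WT and KO comparison, the sharing of peaks and their folds and the bulk RNA of its genes, so differences between the genotypes are given below as a description without a test. It took 520 of the 222750 WT peaks and 482 of the 202374 KO peaks. The last peaks left out started at 51986270 in WT and at 51986268 in KO, the peaks just inside at 52007410 and 52007526, and no peak lay beyond the far limit. Of the 230 protein-coding genes with a start in this window, 108 carry a zinc finger name, so the description as a zinc finger region holds for the annotation.

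All cells were the human embryonic stem cell line HUES8 with a doxycycline-inducible Cas9, which WT and KO cells share. KO lines were single clones in which, by the methods, the whole GPX2 gene was removed with guide RNAs. ATAC-seq was done on day 8 of spontaneous differentiation, with 2 libraries of WT and 2 of KO clone KO2 merged by the authors into 1 peak list per genotype. Bulk RNA-seq covered the same day in WT, WT given H2O2, KO and KO given selenium (2 libraries each), and day 6 in WT and KO (2 libraries each), while single-cell RNA-seq covered WT and KO on day 8 and day 21 of pancreatic differentiation with 1 library each. The paper places the day 6 cells at the posterior foregut stage of pancreatic differentiation. Their titles, however, end in sp like those of the spontaneous day 8 libraries, so the sources differ on their protocol. By the methods the ATAC-seq was done on clone KO2 and other readouts on clone KO1, while day 8 RNA titles and columns carry both ko1 and ko2, and whether that number is a clone or a replicate is not stated. RNA and ATAC-seq may therefore be of different clones, and the deletion and other differences between clones and WT cannot be told apart. The dose of H2O2 is given in nM by the labels and in µM by the methods for spontaneous differentiation, so the sources disagree on the dose itself. One label calls the day 8 KO libraries WT, and they are taken as KO from their titles.

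In ATAC-seq a transposase cuts DNA that is not covered by nucleosomes or other proteins, and a peak is a stretch where the cuts exceed the local background. The distal part of 19q holds one of the largest clusters of KRAB zinc finger genes, which encode DNA-binding repressors, many of them directed against transposable elements, and whose starts commonly lie in CG-rich DNA. The same arm holds the leukocyte receptor complex, with the LILR and KIR receptor genes of immune cells, the NLRP genes, a primate-specific microRNA cluster that is active in placenta, and the imprinted PEG3 domain.

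The sequences below are those the results turn on. They are 250 bases before the starts of ZNF667, ZNF835 and RDH13, which had peaks in both genotypes, and of NCR1, which had one in WT only, all RefSeq promoters (GRCh38.p14, equal to hg38 at these positions) written 5′ to 3′ on the gene's strand. They are followed by the central 300 bases of the highest peak found in KO only, within the ZSCAN5A-AS1 transcript, written on the plus strand of hg38. Capitals mark CG dinucleotides.
ZNF667, chr19:56477346-56477595, minus strand: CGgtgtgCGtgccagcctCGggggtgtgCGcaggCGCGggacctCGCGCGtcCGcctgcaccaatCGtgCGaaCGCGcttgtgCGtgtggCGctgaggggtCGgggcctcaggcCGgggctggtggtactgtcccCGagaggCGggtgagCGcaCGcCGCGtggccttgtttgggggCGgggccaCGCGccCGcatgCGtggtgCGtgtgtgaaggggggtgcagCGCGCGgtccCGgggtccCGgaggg
ZNF835, chr19:56671758-56672007, minus strand: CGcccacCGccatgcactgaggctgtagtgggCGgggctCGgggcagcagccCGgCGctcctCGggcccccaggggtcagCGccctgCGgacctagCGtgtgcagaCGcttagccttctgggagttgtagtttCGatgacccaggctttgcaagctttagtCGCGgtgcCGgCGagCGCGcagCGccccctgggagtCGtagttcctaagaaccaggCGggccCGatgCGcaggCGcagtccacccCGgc
RDH13, chr19:55063149-55063398, minus strand: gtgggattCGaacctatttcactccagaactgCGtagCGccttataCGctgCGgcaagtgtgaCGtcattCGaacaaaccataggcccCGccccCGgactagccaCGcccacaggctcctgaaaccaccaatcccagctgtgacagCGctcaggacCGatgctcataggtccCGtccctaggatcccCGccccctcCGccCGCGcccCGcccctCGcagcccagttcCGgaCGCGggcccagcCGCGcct
NCR1, chr19:54905898-54906147, plus strand: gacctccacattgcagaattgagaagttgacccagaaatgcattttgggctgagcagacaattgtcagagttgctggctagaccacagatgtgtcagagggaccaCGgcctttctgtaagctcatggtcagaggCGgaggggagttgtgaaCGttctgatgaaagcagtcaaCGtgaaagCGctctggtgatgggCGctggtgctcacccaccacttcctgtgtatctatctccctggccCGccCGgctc
ZSCAN5A-AS1 peak, KO only, chr19:56333518-56333817: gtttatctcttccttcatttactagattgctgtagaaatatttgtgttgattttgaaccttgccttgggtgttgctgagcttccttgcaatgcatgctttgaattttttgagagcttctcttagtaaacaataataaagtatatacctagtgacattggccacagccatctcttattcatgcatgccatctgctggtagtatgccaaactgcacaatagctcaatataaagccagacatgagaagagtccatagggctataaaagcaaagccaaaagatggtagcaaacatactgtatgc
The 250 bases at ZNF667 held 35 CG dinucleotides at a G+C content of 75.6%, those at ZNF835 25 (69.6%) and those at RDH13 24 (65.6%). NCR1 had 8 CG dinucleotides (54.4%) and the ZSCAN5A-AS1 peak 0 in 300 bases (38.3%). The last is not typical of its class, since the lower quartile of G+C content over the KO-only regions was 47.8%. Over 35116 RefSeq promoters of 300 bases the median number of CG dinucleotides was 14, and over the 136 zinc finger promoters of distal 19q it was 24. ZNF471 had no entry among these promoters.

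The libraries differed in ways that bear on the values below. Bulk totals were 4234408 to 8617728 counts on day 8 and 7315509 to 9725172 on day 6. GPX2, the deleted gene, had 98.0 to 117 CPM (counts scaled to library size) in WT, 118 to 139 with H2O2, 25.2 to 25.9 in KO and 37.6 to 40.5 in KO with selenium on day 8, and 7.58 to 17.7 in WT and 3.85 to 5.65 in KO on day 6. It was thus lower in the KO libraries but not absent. The paper reports the deletion by PCR and Sanger sequencing, and a lack of GPX2 protein by western blot. The source of the remaining reads was not tested, and KO below means the libraries labelled so. The day 8 libraries carry a number 5 or 8 in the table, and the pluripotency factor POU5F1 had 64.2 to 665 CPM in the 4 libraries numbered 5 and 2.76 to 60.5 in those numbered 8, and NANOG and SOX2 were also lower in number 8 than in number 5 of each group. Day 8 values are given below with number 5 before number 8 in each group. The 7 endoderm markers summed to 1649 to 2155 CPM over all groups with none at 0, the 5 pluripotency markers, mostly LIN28A, to 616 to 1695 CPM, and the mesenchyme markers to 524 to 1145 CPM in WT, 253 to 791 with H2O2, 563 to 608 in KO and 327 to 490 in KO with selenium on day 8. The part of these mixtures in the levels of single genes was not tested. The single-cell libraries kept 1701 WT and 1837 KO cells on day 8 and 6128 and 5611 on day 21, and the WT and KO libraries of a day shared 0 and 7 barcodes.

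Most accessible sites of distal 19q were found in both genotypes. Of the 520 WT peaks 414 overlapped a KO peak by at least 1 base, which is 79.6% (exact 95% binomial interval 75.9 to 83.0%), and of the 482 KO peaks 413 overlapped a WT peak, which is 85.7% (82.2 to 88.7%). Such intervals cover counting error only, and with 1 merged list per genotype there is no spread between replicates. The share without a partner was 20.4% of WT peaks, beside 24.7% over all WT peaks of the genome, and 14.3% of KO peaks, beside 16.6% over all KO peaks. On the rest of chromosome 19 79.6% of WT peaks and 84.3% of KO peaks were shared, so the window as a whole lay close to its chromosome.

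Peaks without a partner were the weak and narrow ones. The authors' peak caller gives each peak a fold, its signal over the local background. The median fold was 2.92 for shared and 2.23 for unshared WT peaks, and 2.94 against 2.28 for KO peaks. Median widths were 1096 bases for shared and 449 for unshared WT peaks, and 1073 and 374 bases for KO peaks. The shared fraction therefore rose with fold in both lists. Of the WT peaks with a fold below 2.5, 131 of 220 were shared (59.5%, beside 56.4% over all WT peaks of the genome). Of those from 3 to 4, 122 of 127 were shared (96.1%, beside 98.0%). All 69 WT peaks and all 69 KO peaks with a fold of 4 or more had a partner, beside 99.8% and 99.6% over the genome. The rise with fold was thus close to that over all peaks. The highest unshared peak reached a fold of 3.57 in WT and 3.32 in KO.

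Joining overlapping peaks of both lists gave 583 regions, of which 408 had peaks of both genotypes (70.0%), 106 of WT only (18.2%) and 69 of KO only (11.8%). The shares over all 254553 regions of the genome were 65.3, 21.6 and 13.2%. The strength of most shared regions was nearly the same in both genotypes. The median log2 ratio of KO to WT fold was 0.03, 9 in 10 regions lay between -0.25 and 0.24, and none of the 408 differed by more than 2 times. Across the genome 2 of 166099 shared regions did. Single sites lay outside the range of 9 in 10 in both directions. Folds were 2.14 in WT and 3.57 in KO at chr19:56490365-56491868, between the ZNF667 and ZNF471 starts. They were 2.89 and 5.29 at chr19:56637911-56638471, between the ZNF71 and ZNF835 starts, and 5.81 and 4.05 at chr19:56066140-56067189. At the ZFP28, ZNF470 and ZNF71 starts, also between ZNF667 and ZNF835, they were 4.16, 4.87 and 5.02 in WT and 4.07, 5.07 and 5.16 in KO.

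**Figure D1:**
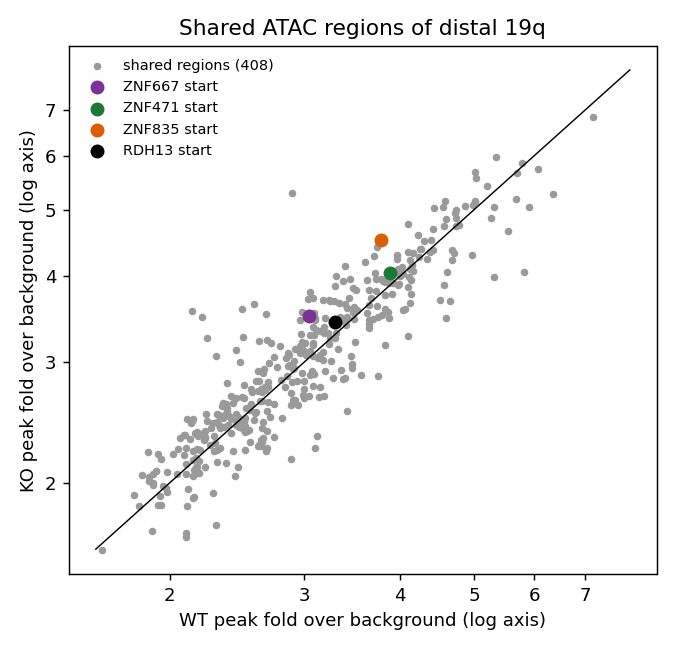
Peak fold over background in KO (vertical, log axis) against WT (horizontal, log axis) for the 408 regions with peaks in both genotypes, 1 point each, with the line of equal fold. The starts of ZNF667, ZNF471, ZNF835 and RDH13 are coloured and lie within the cloud. All are above the line, those of ZNF471 and RDH13 close to it.

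Sequence and distance to gene starts, which the choice of the window did not use, differed between the classes of regions. Median G+C content was 56.6% in shared regions, 51.7% in WT-only regions and 52.5% in KO-only regions, with 3.58, 1.72 and 1.96 CG dinucleotides per 100 bases. The centre of a shared region lay within 1000 bases of a gene start in 175 of 408 cases (42.9%), of a WT-only region in 16 of 106 (15.1%) and of a KO-only region in 7 of 69 (10.1%). Sites of 1 genotype thus lay near starts less often than shared sites, and both genotypes had this in common. The same values over all regions of the genome were not computed, so whether this is particular to the window was not tested. Since shared regions are joined from 2 peaks they are also wider, with a median of 1221.5 bases.

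The 3 highest shared sites lay at starts of zinc finger genes. The peak at ZNF773 had a fold of 7.16 in WT and 6.82 in KO, that at ZNF530 of 5.78 and 5.86, and that at ZNF549 of 6.06 and 5.73. Peaks of 1 genotype never came near these values. After a site in an intron of FCAR at chr19:54881185-54882123 with a fold of 3.57, the highest WT-only peaks lay in CACNG7, a calcium channel subunit gene (3.51), and at a pair of sites in NLRP7 (3.50 and 3.21), and the next lay between genes (3.04). Among the highest KO-only peaks were one in ZSCAN5A-AS1 (chr19:56333516-56333819, 3.32) and one in CACNG6 (2.70). Others lay between genes and far from each other, at chr19:57099297-57099603 (2.94) and chr19:58488109-58488304 (2.90).

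**Figure D2:**
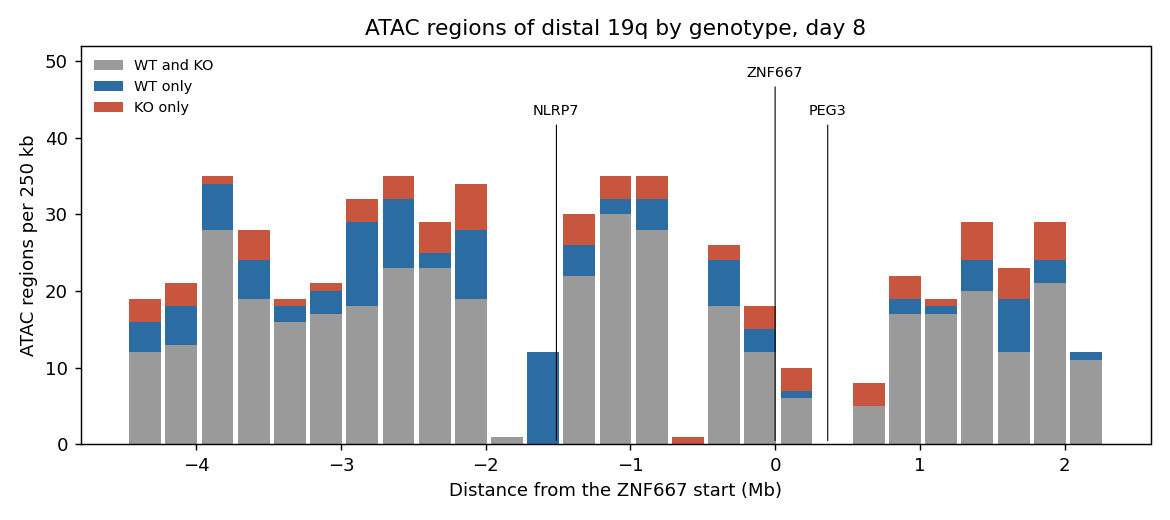
Number of ATAC regions per 250 kb along distal 19q, by distance from the ZNF667 start in Mb, stacked as regions with peaks in both genotypes (grey), in WT only (blue) and in KO only (red). Next to NLRP7 1 bin holds 12 WT-only regions and no other region, whereas the remaining filled bins with more than 1 region hold shared regions.

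The longest run of peaks of 1 genotype in the window was one of WT-only peaks around NLRP7. A run was counted where at least 4 neighbouring regions had peaks of 1 genotype with no region of the other genotype between them. WT had 2 such runs, with 14 and 4 regions, which is 17.0% of its 106 WT-only regions beside 4.15% over all WT-only regions of the genome. KO had 0, beside 1.07% over all KO-only regions, and its longest series was 2. Genome-wide 516 WT runs and 82 KO runs were found, and of the WT runs 1 was longer, with 16 regions. Since the window was chosen with the WT and KO comparison known, nothing is read from these shares.

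The run of 14 reached from 54881185 to 55043413 (162229 bases). It lay inside a stretch of 553017 bases without a KO peak, from 54509273 to 55062289, which was the longest gap of the KO list in the window. In WT the centromeric part of this stretch, which holds LILR and KIR genes, was empty too, over 371742 bases. The 14 WT peaks stood in the telomeric part, over and between FCAR, which encodes an IgA receptor, NCR1, which encodes the natural killer receptor NKp46, NLRP7, NLRP2 and GP6, which encodes a platelet collagen receptor. Their folds ran from 2.22 to 3.57 with a median of 2.48, their widths from 240 to 1525 bases and their -log10 q from 1.37 to 6.06, and 2 of them reached a -log10 q of 5. They were thus mostly weak peaks, and at that stricter limit no run of 4 was left and the longest WT-only run had 2 regions. The 2 strongest were the FCAR site (3.57) and a site in NLRP7 at chr19:54943867-54944579 (3.50). G+C content of the 14 ran from 46.6 to 59.4%, with a median of 50.4%.

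On both sides of the stretch the genotypes had nearly equal peaks. In the 500 kb before it there were 53 WT and 53 KO peaks with 42 shared regions, whose median log2 ratio of KO to WT fold was 0.03. In the 500 kb after it there were 66 WT and 68 KO peaks with 59 shared regions and a median of -0.01. The edge was sharp on the telomeric side. At the RDH13 start, the next site after the run, the fold was 3.29 in WT and 3.43 in KO. Cutting both lists to the same number of peaks, a setting chosen after the data were seen, kept all 14 WT peaks.

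**Figure D3:**
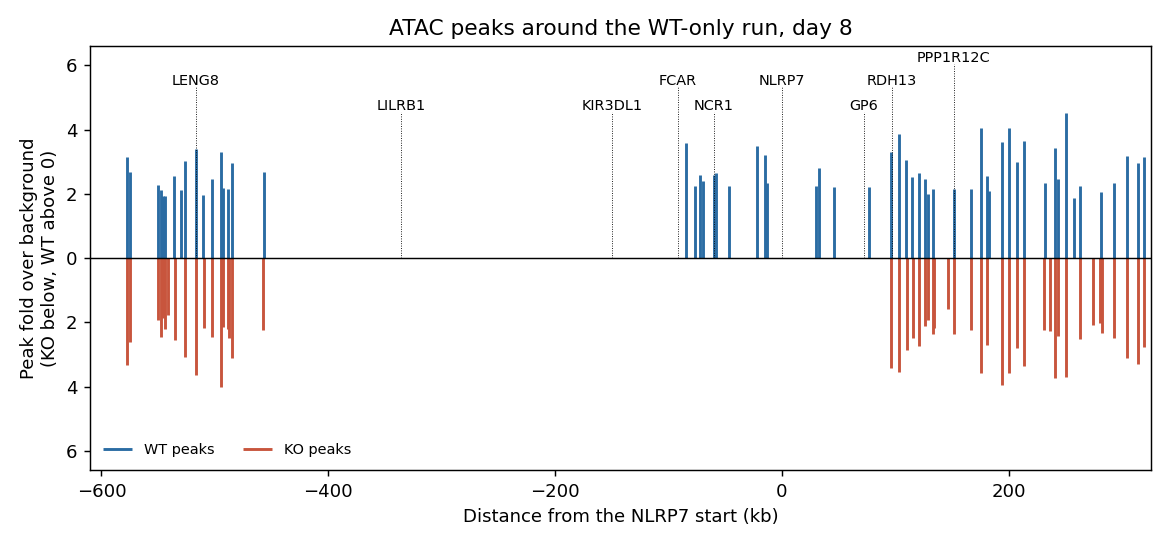
Peak fold over background by distance from the NLRP7 start in kb, with WT peaks drawn above 0 and KO peaks below 0, and dotted lines at gene starts. Between the peaks near LENG8 and the RDH13 start no KO peak stands, while 14 WT peaks with folds of 2.22 to 3.57 do.

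The second run had 4 WT-only regions from 56085234 to 56100286 (15053 bases) over the transcript of ZNF787, a zinc finger gene whose own start had peaks in both genotypes. Its highest fold was 2.11. Runs of 3 WT-only regions occurred 2 times, one of them, with folds up to 2.52, within the microRNA cluster.

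Bulk RNA of the genes in the KO-empty stretch was mostly absent from both genotypes. The stretch held the starts of 39 genes, 16 of them coding, and 13 of the 16 stayed under 0.5 CPM in every bulk library. None of the 12 LILR, KIR and FCAR genes, which act in leukocytes, reached that level. Near-identical LILR and KIR copies share reads, so their counts are uncertain. The 3 remaining genes were NCR1, NLRP7 and NLRP2, and of these NCR1 and NLRP7 had enough counts to be fitted on day 8. In bulk RNA, fewer cells of a type and less RNA per cell cannot be told apart.

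NLRP7, which encodes a member of the NLR family known for its role in oocytes and early embryos, was detected at 7.57 and 15.3 CPM in the WT libraries of day 8, at 4.26 and 10.2 with H2O2, at 0.925 and 1.90 in KO and at 0.986 and 3.50 in KO with selenium. Every library of the KO line lay below every library of the WT line, among those numbered 5 as among those numbered 8. Over the 4 libraries of each line the means were 9.33 ± 4.66 CPM for WT and 1.83 ± 1.20 for KO (SD, n = 4), 5.10 times lower in KO. Here and below the means of a line pool treated and untreated libraries, so their SD is not a spread between replicates. In the untreated libraries alone the ratio of KO to WT was 0.124. The fitted log2 change from WT to KO was -3.02 ± 0.80 (SE). The NLRP7 start itself had a peak in neither genotype. On day 6 there were 9 and 7 reads in WT and 1 and 1 in KO.

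NCR1 had 0.923 and 4.05 CPM in WT, 1.89 and 3.35 with H2O2, 0.185 and 0.476 in KO and 0.329 and 0.934 in KO with selenium. The lines overlapped by 1 library, since the lowest WT value lay just under the highest KO value, and the counts behind the KO values were 1, 2, 2 and 8 reads. Its start was 1 of the 5 coding starts with a peak in WT only (fold 2.58). NLRP2, whose start lies next to that of NLRP7, had means of 1.25 ± 0.919 CPM in the WT line and 0.387 ± 0.218 in the KO line (SD, n = 4), and its lines overlapped.

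Beyond the telomeric edge the next coding genes by position, a rule set after the values were seen, were RDH13, EPS8L1, PPP1R12C and TNNT1. All 4 had lower means in the KO line, and in RDH13 and EPS8L1 the lines did not overlap. RDH13, a mitochondrial retinol dehydrogenase, had 6.83 and 14.9 CPM in WT, 7.33 and 7.54 with H2O2, 4.26 and 4.52 in KO and 3.12 and 4.32 in KO with selenium, without overlap of the lines. EPS8L1, a relative of the actin regulator EPS8, had 10.7 and 13.99 CPM, 7.33 and 14.2, 3.33 and 5.71, and 5.26 and 3.97 in the same order, again without overlap. The means of the 2 lines differed 2.26 times for RDH13 and 2.53 times for EPS8L1. PPP1R12C, a myosin phosphatase subunit gene whose intron holds the AAVS1 site often used to insert transgenes, had means of 8.39 ± 2.82 CPM in the WT line and 4.13 ± 0.956 in the KO line (SD, n = 4), and 1 WT-line library (4.96) lay below the highest KO library (5.23). TNNT1, the slow skeletal troponin T, had a start peak in WT only (2.08) and means of 14.4 and 7.17 CPM, with overlap.

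Peak folds at these starts were close in WT and KO. The RDH13, EPS8L1 and PPP1R12C starts had folds of 3.29, 3.05 and 2.16 in WT and of 3.43, 2.87 and 2.36 in KO. On the centromeric side LENG8, the nearest gene with a start peak and substantial RNA, had 160 CPM in the WT line and 130 in the KO line with overlap, and folds of 3.39 and 3.65. On day 6 RDH13 had 3.27 and 3.03 CPM in WT and 1.56 and 1.75 in KO, and PPP1R12C 5.03 and 4.14 in WT and 2.81 and 2.36 in KO. EPS8L1 had about equal means on day 6, 0.998 in WT and 0.828 in KO.

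**Figure D4:**
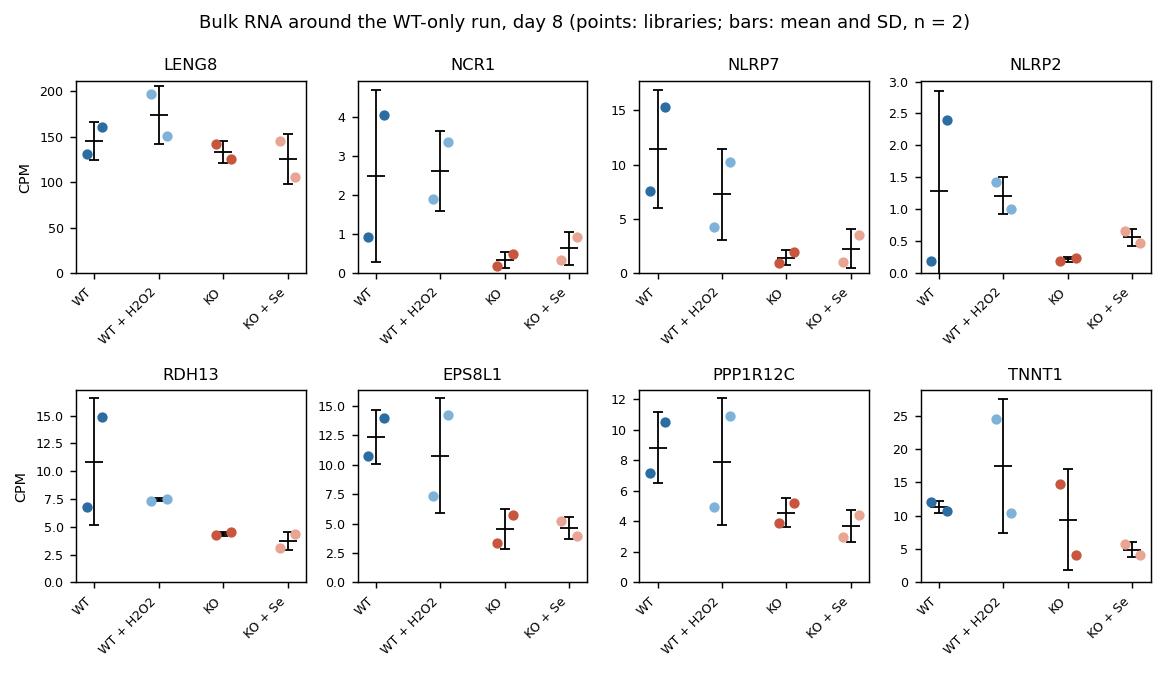
Bulk RNA on day 8 in CPM for 8 genes in and around the run of WT-only peaks, with 1 point per library and bars for the mean and SD of the 2 libraries of a group (the lower end of a bar is cut off at 0). In NLRP7, RDH13 and EPS8L1 all KO and KO + Se points lie below all WT and WT + H2O2 points, and in LENG8 the groups overlap.

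Counted over the window, 4 of the 169 genes with enough counts on day 8 had all 4 KO-line libraries below all 4 WT-line libraries (2.37%, beside 0.815% of all genes tested): NLRP7, RDH13, EPS8L1 and the zinc finger gene ZNF304. In 6 genes all KO-line libraries were above (3.55%, beside 0.981%): ZNF667, ZNF667-AS1, ZNF471, ZNF132, ZNF837 and MZF1-AS1. On day 6, with 2 libraries against 2, the shares were 18.1% below (beside 19.8%) and 21.1% above (beside 20.0%). Nothing is read from these shares, since the window was chosen with the same contrast in view.

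Tests were made on the treatments, which played no part in the choice of the window but share the WT or KO libraries with it. With edgeR's quasi-likelihood test 0 of the 169 genes passed an adjusted p of 0.05 for H2O2 in WT cells, beside 0% of all 14470 genes tested. In this test 1 gene, ZNF132, had an unadjusted p under 0.05 (0.592%, beside 0.898% of all genes). For selenium in KO cells the count was also 0, beside 0%, with 1 gene, ZNF836, at an unadjusted p under 0.05 (0.592%, beside 0.995%). DESeq2 called 0 of the 169 genes in either comparison. The DESeq2 share over all genes on day 8 is not given here, so nothing is read from its counts. NLRP7 changed by a log2 value of -0.64 ± 0.69 (SE) with H2O2 and of 0.72 ± 0.81 with selenium, and ZNF667 by 0.54 ± 0.38 and 0.62 ± 0.36 (edgeR adjusted p = 1.00 in all 4 cases). The contrast of KO and WT on day 8 was in view when the window was chosen, so its calls are only a count: edgeR and DESeq2 each called 0 of the 169 genes, beside 0% of all genes in edgeR, and 11 genes (6.51%) had an unadjusted p under 0.05, beside 1.22% of all genes.

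ZNF667, ZNF471 and ZNF835, 3 zinc finger genes within 200 kb of each other, had start peaks in both genotypes, and their RNA differed. The ZNF667 start, which lies in the same peak as that of the divergent ZNF667-AS1, had a fold of 3.04 in WT and 3.50 in KO. At ZNF471 the folds were 3.89 and 4.05, and at ZNF835 they were 3.78 and 4.52. Expressed as log2 ratios of KO to WT these are 0.20, 0.06 and 0.26, within the range of -0.52 to 0.50 of the 245 starts with peaks in both genotypes (median 0.04). Ordered by this ratio they stood at places 17, 94 and 5 of 245. The -log10 q of these peaks was higher in KO, at 7.11582, 10.9961 and 8.798 in WT and 22.7682, 20.7445 and 18.6893 in KO. At the ZFP28, ZNF470 and ZNF71 starts it was 16.0708, 27.326 and 23.6433 in WT and 20.2143, 30.5126 and 26.2711 in KO. In the same order of genotypes it was 30.672 and 38.5999 at ZNF582, and 28.77 and 23.8805 at ZNF583. Whether accessibility differed at the 3 starts was not tested.

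RNA of the 3 genes was much higher in KO on day 6. ZNF667 had 0.939 and 0.961 CPM in WT and 17.3 and 18.8 in KO, 18.98 times more, and a fitted log2 change of 4.23 ± 0.27 (SE). ZNF471 had 1.64 and 1.10 CPM in WT and 11.7 and 12.7 in KO, 8.90 times more (3.12 ± 0.29). ZNF835 had 1 and 0 reads in WT and 32 and 26 in KO. For ZNF667-AS1, a long non-coding RNA, there were 1.40 and 0.552 CPM in WT and 12.2 and 16.1 in KO. Counting did not use strand, so reads of ZNF667 and of its antisense partner cannot be told apart where they overlap. The first 3 genes were named when the window was chosen, so their calls are a description. Of the 171 genes fitted on day 6 edgeR called these 4, all higher in KO (2.34%, beside 0.253% called higher and 0.130% called lower among all genes), from which nothing is read. Without the WT library E2 it called 7 of the window and 977 of all genes, against 56 of all genes with it.

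On day 8, the day of the ATAC-seq, the ratio of KO to WT was 2.23 for ZNF667 and 1.35 for ZNF471, and the difference between the days was not tested. ZNF667 had 5.54 and 3.68 CPM in WT, 6.15 and 7.21 with H2O2, 10.5 and 9.99 in KO and 20.1 and 11.7 in KO with selenium, so that the lines did not overlap. ZNF471 had 5.54 and 7.18, 4.02 and 5.70, 8.14 and 9.04, and 9.53 and 11.8 CPM in the same order, also without overlap. ZNF835 ran from 0.167 to 0.945 CPM in the WT line and from 0.819 to 1.67 in the KO line, with overlap. The fitted log2 changes from WT to KO were 1.15 ± 0.38 for ZNF667, 0.87 ± 0.39 for ZNF667-AS1 and 0.43 ± 0.33 for ZNF471 (SE). The WT levels of day 8 stood above those of day 6, in tables that were counted separately and that, by the treatment labels, come from different protocols.

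**Figure D5:**
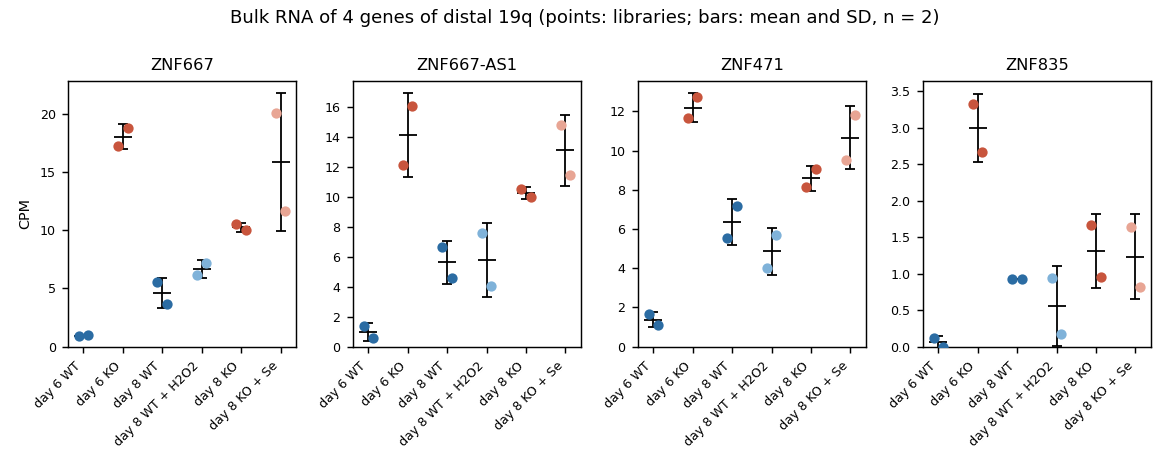
Bulk RNA in CPM of ZNF667, ZNF667-AS1, ZNF471 and ZNF835 in the 6 groups of day 6 and day 8, with 1 point per library and bars for the mean and SD of 2 libraries. The day 6 WT points lie near 0 and the day 6 KO points well above them, and on day 8 the distance between the lines is smaller.

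Neighbouring zinc finger genes had day 6 levels that lay closer together. ZNF583 and ZNF582, which lie 73.0 and 83.8 kb before ZNF667, had ratios of KO to WT of 0.911 and 0.818, and ZNF470 and ZNF71, 90.1 and 118 kb after it, of 1.17 and 0.914. ZFP28, which lies between ZNF471 and ZNF470, had 5.91 CPM in WT and 11.8 in KO, a log2 change of 0.99 ± 0.22 (SE). All 5 had start peaks in both genotypes, for example with folds of 4.16 and 4.07 at ZFP28 and of 5.35 and 5.96 at ZNF582. Over all starts of the window with peaks in both genotypes and RNA fitted, the log2 ratio of folds and the log2 change of RNA had a Pearson correlation across genes of 0.02 on day 8 (n = 136) and 0.11 on day 6 (n = 137), with Spearman values of -0.02 and -0.19. Genes are not independent replicates, and these points share the libraries.

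In the single cells, which were counted in 1 library per genotype and day, ZNF667 stood at 6.93 CPM in WT (exact 95% Poisson interval 4.16 to 10.5) and 21.2 in KO (15.8 to 27.2) on day 8, and at 0.755 (0.502 to 1.09) and 9.21 (8.36 to 10.1) on day 21. ZNF667-AS1 had 2.27 CPM in WT and 28.4 in KO on day 21, ZNF471 1.59 and 6.57, and ZNF835 0.432 and 1.59. All 4 genes were higher in the KO library on both days, without replicates to set this against, and on day 8 the intervals of ZNF471 and ZNF835 overlapped between the genotypes. For the genes near the run the values of day 21 lay closer together, with overlapping intervals for RDH13 and PPP1R12C. RDH13 had 3.45 CPM (2.88 to 4.11) in WT and 2.45 (2.02 to 2.94) in KO on day 21, EPS8L1 had 3.94 (3.33 to 4.63) and 2.49 (2.06 to 2.99), and PPP1R12C had 2.45 (1.98 to 3.01) and 2.27 (1.86 to 2.75). NLRP7 had 3 UMIs in WT and 2 in KO on day 21, at or under the floor of 3, and on day 8 0.333 in WT (0.114 CPM, 0 to 1.26) and 4 in KO (1.498 CPM, 0.408 to 3.84), so the single cells did not show the order of the bulk libraries at this depth.

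Starts of zinc finger genes as a group had peaks in both genotypes. Of the 108 coding zinc finger genes 101 had a start peak within 1000 bases in both genotypes (93.5%), 7 in neither and 0 in 1 genotype only. Over all coding genes of the genome 80.6% had start peaks in both genotypes and 3.48% in 1 genotype. Their RNA had medians near those of all genes. The 97 genes fitted on day 8 had a median log2 change from WT to KO of -0.11 beside -0.00 over all genes, and the 99 fitted on day 6 had 0.06 beside -0.01, with ZNF667, ZNF471 and ZNF835 called and no gene called lower. With H2O2 the median was -0.06 and with selenium 0.09. Of the 31 coding genes for immune receptors and NLRP proteins, 1 had a start peak in both genotypes, 2 in WT only (NCR1 and NLRP12), 2 in KO only (LILRA4 and LILRB5) and 26 in neither.

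Over all 525 genes of the window 245 had start peaks in both genotypes, 25 in WT only, 10 in KO only and 245 in neither. The 35 starts with a peak in 1 genotype are 6.67%, beside 6.97% of all gene starts. Their folds ran from 1.79 to 3.08. Of the 25 WT-only starts 5 belonged to genes with enough RNA to be fitted on day 8, and of the 10 KO-only starts 0 did. The highest KO-only start was that of the non-coding gene ENSG00000269873 (3.08), followed by the pseudogene ENSG00000276206 (2.69) and by LILRA4 together with ENSG00000275210 in 1 peak (2.61). After NCR1 the highest WT-only starts were those of microRNA genes.

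MicroRNA genes made up 9 of the 25 WT-only starts and 2 of the 10 KO-only starts. These are 17.5% of the 63 microRNA starts of the window, beside 10.7% of the 1879 of the genome, and neighbouring starts share peaks. Of the 9, 7 lay in the cluster of 46 microRNA genes between 53666679 and 53762344. This cluster held 2 shared regions, 5 WT-only regions with folds of 2.08 to 2.52 and 1 KO-only region at MIR512-1 (2.23). MIR518F and MIR520B shared 1 WT-only peak (2.52), as did MIR516A2 and MIR519A2 (2.51) and MIR517A and MIR519D (2.08), and MIR526A1 had its own (2.33). Bulk RNA held 0 reads for each of the 46 genes, and such libraries are not made to capture mature microRNAs. The mature 3p forms of 3 genes at WT-only peaks and of the gene at the KO-only peak are shown because their seeds, bases 2 to 8 in capitals, all hold AGUGC.
hsa-miR-520b-3p, WT-only peak: aAAGUGCUuccuuuuagaggg
hsa-miR-519a-3p, WT-only peak: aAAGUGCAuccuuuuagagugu
hsa-miR-519d-3p, WT-only peak: cAAAGUGCcucccuuuagagug
hsa-miR-512-3p, KO-only peak: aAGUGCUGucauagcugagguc
These are RefSeq sequences of GRCh38.p14, on the plus strand of chromosome 19. The seed of miR-520b-3p was shared by 5 of the 65 mature forms of the cluster, that of miR-519a-3p by 3, that of miR-519d-3p by 2 and that of miR-512-3p by 1.

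The starts of the imprinted domain around PEG3 had no peak in either genotype. No WT peak stood from 56672120 to 57104086 (431967 bases) and no KO peak from 56672172 to 57099296 (427125 bases). These gaps hold the starts of PEG3, ZIM2 and MIMT1. The USP29 start, at 57119985, lay beyond both gaps and had no peak within 1000 bases either. PEG3, a paternally expressed zinc finger gene, had 0.818 and 0.138 CPM in WT on day 6 and 0 reads in every other bulk library, and ZIM2, MIMT1 and USP29 had 0 reads in all 12. A KO-only peak with a fold of 2.94 stood just past the KO gap, at chr19:57099297-57099603. Next to it a KO peak at chr19:57103907-57104238 (3.21) overlapped a WT peak at chr19:57104087-57104464 (2.98). Both sites lay between the MIMT1 and USP29 starts.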

How the data were processed

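Peaks were taken from the lists deposited for ATAC-seq. The authors ran nf-core/atacseq (Trim Galore, Bowtie2 on hg38, Picard, SAMtools) and MACS2 in broad mode on the merged libraries, and per the file layout the deposited columns used are the fold over background (a ratio) and the −log10 q. For bulk RNA the authors used fastp, STAR and featureCounts 2.0.1 with Ensembl release 108, without strand, and deposited whole counts per gene. Single-cell files hold counts (UMIs) for day 21 and expected counts for day 8, which the authors deposited with UMIs shared between genes as fractions; they were summed per library without rounding.

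Peaks of the 2 genotypes were joined where they overlapped by at least 1 base. A start had a peak if one lay within 1000 bases of the GENCODE 44 start. Bulk counts were fitted over all genes with edgeR 4.0.16 (TMM, filterByExpr, quasi-likelihood, Benjamini-Hochberg adjustment at 0.05) in R 4.3.3, the 8 libraries of day 8 together and the 4 of day 6 apart, and DESeq2 1.42.0 was an alternative. Both steps were tested on simulated data. Nothing says that the 2 libraries of a group were separate cultures, so p-values measure only the spread between these samples, which may be technical. Day 8 cells had at least 200 genes and under 5% mitochondrial UMIs, day 21 cells 1500 to 5000 genes and under 15%. Doublets were not removed.

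Library numbers 5 and 8 of the day 8 columns deviated together in all 6 pairs of groups (correlation 0.33 to 0.68), as did the letters E and F on day 6 (0.24). Neither is stated to mark a shared culture, and the blocked fits are alternatives.

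The window, the gene families and the genes named were chosen with earlier results of these data known. Named were ZNF667, ZNF667-AS1, ZNF471 and ZNF835, the highest starts of 1 genotype, genes called on either day, the PEG3 domain, PPP1R12C, genes in the longest runs and the highest peaks. Coding neighbours of the run and the comparison of all libraries of a line were chosen after values were seen. The authors' own comparison columns were not used. A peak of KO only and the sequence of a peak of WT only are not reported here. The depth of the ATAC libraries is not given in the sources used here.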

Additional observations from a re-analysis of the deposited data

How the results depend on the processing

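The run around NLRP7 rests on weak peaks. With a −log10 q of at least 5 the shared part was 88.4% of WT and 93.5% of KO peaks. There were 32 WT-only and 17 KO-only regions, 0 WT runs and 17 starts with a peak in 1 genotype. These values were not computed over the genome. However, 272 of the 275 WT peaks at that limit met some peak of the full KO list (98.9%, beside 99.6% over the genome). Of the 261 KO peaks 260 met some peak of the full WT list (99.6%, beside 99.5%). With a fold of at least 4, 81.2% of KO peaks were shared, with 13 WT-only and 13 KO-only regions and 0 WT runs, although every peak at that limit met some peak of the other full list. With lists of equal length (added after the data were seen) the values were 81.7% and 83.6%, 90 and 79 regions, and 2 and 0 runs. Without the filter on low counts edgeR called 1 gene for KO against WT on day 8, NLRP7 (log2 change -3.05; 31 over all genes), and 1 for H2O2, NLRP12 (136 over all genes). Leaving out 1 library gave 0 to 0 genes on day 8 and 4 to 7 on day 6, the 7 (977 over all genes) without WT library E2. Leaving out 1 library turned the direction of 3 log2 changes, TNNT1 in KO (-1.49 to 0.39, highest without the KO library numbered 8), ZNF667-AS1 with H2O2 (-0.48 to 0.42, with -0.48 without the treated replicate 1 and -0.21 without WT replicate 2) and NLRP7 with selenium (-0.48 to 1.33, lowest without the treated replicate 2). The causes were not tested. With the replicate block the counts were 0 in the 3 comparisons of day 8 and 6 on day 6, where ZFP28 and ZNF600 joined the 4. Counts over all genes in the day 8 fits with the block or without 1 library are not given here. Over all genes day 6 gave 56 calls, 149 with DESeq2, 580 without the filter and 842 with the block. ZNF835 had an adjusted p of 0.0509 with DESeq2 on day 6. The other 162 gene values kept their direction and their side of the threshold. The other 48 counts or shares stayed within a fixed ratio of the main count, which is no error estimate, or within the interval of the main share. ATAC depth and the spread between ATAC libraries are unknown, which limits every statement on peaks of 1 genotype.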
